A study of Mus musculus with 28 samples.

Results

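The genes described here are 84 nuclear genes of the mitochondrial respiratory chain and the ATP synthase, out of 23951 gene symbols in the deposited expression tables. They were chosen by symbol alone, with no measured value: 37 Nduf genes of complex I, 4 Sdh genes of complex II, 8 Uqcr genes of complex III, 18 Cox genes of complex IV and 17 Atp5 genes of complex V. Each has 1 locus in the tables. The name rule also brings in genes that are not core subunits. Cox7a2l encodes a factor that joins complexes III and IV into supercomplexes, Atp5sl (now Dmac2) a complex I assembly factor, Atp5s a coupling factor of the ATP synthase, and Ndufa4 a protein now placed with complex IV.

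The cells were NIH/3T3 Tet-On 3G mouse fibroblasts, an immortalised line that carries a doxycycline-dependent transactivator. Polyadenylated RNA was sequenced from 2 control clones, which carry GFP-Luciferase/OFP-Luciferase and are labelled wild type, and from 3 H3.3 knockdown clones, which carry OFP-H3.3A/GFP-H3.3B. The treatment label of all 5 RNA clones names FLAG/HA-H3.3 cells given doxycycline, so the groups share it. H3.3 is the histone variant placed outside replication, encoded by H3f3a and H3f3b, and the knockdown serves to ask which genes depend on it. Chromatin immunoprecipitation with sequencing (ChIP-seq) covered, with 1 library each in unmodified cells, 3 histone marks (H3K4me3, H3K9ac and H3K27ac) and 6 subunits of NuRD, the nucleosome remodelling and deacetylase complex (MTA1, RBBP4, MBD2/3, CHD4, HDAC1 and HDAC2). HA-tagged H3.3 was precipitated in 2 replicates from cells given aphidicolin, which stops replication, and doxycycline. MTA1 and RBBP4 were also precipitated from control and knockdown cells, with 1 library each. A sequential ChIP took FLAG first and RBBP4 second, also from cells with doxycycline. Clones of 1 line are the only replicates, so the p-values measure the spread between these clones.

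Complex I (NADH dehydrogenase) and complex II (succinate dehydrogenase) pass electrons to ubiquinone, complex III (the cytochrome bc1 complex) passes them to cytochrome c, and complex IV (cytochrome c oxidase) to oxygen. Complexes I, III and IV pump protons across the inner membrane, and the ATP synthase, complex V, uses that gradient to make ATP. Most subunits are encoded in the nucleus, many of them are small accessory proteins with short mRNAs, and the transcription factors NRF1, GABP (of the ETS family) and YY1 are known to bind many of their promoters. Several subunits have isoform genes used in heart and skeletal muscle, lung or testis.

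Promoter sequences were taken from RefSeq. Its start windows on GRCm38.p6, 250 bases before to 50 after the start, matched 69 of the 84 genes, and 3 of these matched under a newer symbol. The letters CGCATGCG (NRF1 core) were found on either strand in 13.0% of these genes (9 genes), against 2.07% of all genes with a window and 4.91% of genes with a control expression of at least 10 FPKM. FPKM counts sequenced fragments corrected for transcript length and library size. AAGATGGC (YY1 core) was found in 15.9% (11 genes), against 3.19% and 6.45%. CCGGAAGT (ETS core) was found in 7.25% (5 genes), against 4.31% and 11.0%, and GGGCGG (SP1 core, which can lie inside GC-rich runs) in 40.6%, against 38.2% and 73.7%. The NRF1 and YY1 shares were thus above those of expressed genes and the ETS and SP1 shares below them, as a description without a test. At least 1 of the NRF1, YY1 and ETS cores stood in 23 of the 69 genes, 8 of 16 in complex V, 3 of 5 in complex III, 10 of 32 in complex I, 2 of 13 in complex IV and 0 of 3 in complex II. The 7 promoters below belong to genes named here for their mRNA level, their difference between the groups or their isoforms, and each holds a match within the stretch shown. They are printed 5′ to 3′ on the gene's strand from 250 bases before to 30 after the start, from RefSeq, with the matches to the 3 cores on either strand in capitals.
Uqcr11, chr10:80406792-80407071, minus strand: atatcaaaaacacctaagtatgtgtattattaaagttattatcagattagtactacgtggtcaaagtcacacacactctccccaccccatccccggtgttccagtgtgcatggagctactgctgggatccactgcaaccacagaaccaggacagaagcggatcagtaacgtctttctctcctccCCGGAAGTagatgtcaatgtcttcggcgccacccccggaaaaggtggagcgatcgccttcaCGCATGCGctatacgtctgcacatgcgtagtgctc
Atp5k, chr5:108434370-108434649, minus strand: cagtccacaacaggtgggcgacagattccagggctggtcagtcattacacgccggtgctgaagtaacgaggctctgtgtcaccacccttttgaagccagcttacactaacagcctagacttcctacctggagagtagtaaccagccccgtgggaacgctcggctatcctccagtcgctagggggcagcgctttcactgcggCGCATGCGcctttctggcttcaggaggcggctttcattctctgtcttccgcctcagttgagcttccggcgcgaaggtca
Atp5g2, chr15:102671018-102671297, minus strand: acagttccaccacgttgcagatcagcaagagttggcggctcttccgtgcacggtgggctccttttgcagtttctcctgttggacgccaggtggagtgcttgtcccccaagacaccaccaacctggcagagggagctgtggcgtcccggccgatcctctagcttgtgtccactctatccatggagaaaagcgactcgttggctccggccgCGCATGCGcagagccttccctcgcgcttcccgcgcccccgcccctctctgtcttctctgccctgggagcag
Cox6a1, chr5:115348929-115349208, minus strand: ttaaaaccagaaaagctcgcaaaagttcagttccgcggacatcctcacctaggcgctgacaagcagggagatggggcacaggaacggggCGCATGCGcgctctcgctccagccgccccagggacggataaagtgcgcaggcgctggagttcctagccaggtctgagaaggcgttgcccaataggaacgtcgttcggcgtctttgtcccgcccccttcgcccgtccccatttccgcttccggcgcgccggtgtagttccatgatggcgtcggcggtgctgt
Cox8a, chr19:7217587-7217866, minus strand: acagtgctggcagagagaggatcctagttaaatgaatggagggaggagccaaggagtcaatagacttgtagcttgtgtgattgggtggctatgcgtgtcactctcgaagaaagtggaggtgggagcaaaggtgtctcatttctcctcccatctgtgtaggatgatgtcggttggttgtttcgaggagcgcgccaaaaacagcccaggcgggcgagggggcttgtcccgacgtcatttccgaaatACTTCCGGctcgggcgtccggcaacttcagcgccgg
Uqcrh, chr4:116075041-116075320, minus strand: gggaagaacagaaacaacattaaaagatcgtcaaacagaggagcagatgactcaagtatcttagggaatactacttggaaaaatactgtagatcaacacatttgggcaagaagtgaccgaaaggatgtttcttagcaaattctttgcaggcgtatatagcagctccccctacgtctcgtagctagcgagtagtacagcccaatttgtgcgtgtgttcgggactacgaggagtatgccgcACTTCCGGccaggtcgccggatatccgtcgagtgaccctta
Ndufa3, chr7:3617123-3617402, plus strand: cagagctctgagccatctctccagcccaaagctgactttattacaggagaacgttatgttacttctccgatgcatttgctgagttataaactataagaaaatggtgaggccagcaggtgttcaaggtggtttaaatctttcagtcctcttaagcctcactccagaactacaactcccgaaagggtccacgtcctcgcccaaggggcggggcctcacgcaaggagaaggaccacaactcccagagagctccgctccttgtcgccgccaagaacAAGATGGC
Uqcr11 holds an ETS core and, across its start, an NRF1 core. Atp5k, Atp5g2 and Cox6a1 each hold 1 NRF1 core. Cox8a, across its start, and Uqcrh, just before it, hold an ETS core read on the other strand, and Ndufa3 holds a YY1 core shortly after its start. The genes with a match to NRF1, ETS or YY1 had a median log2 difference between knockdown and control clones of 0.30 (23 genes). Those without one had 0.29 (42 genes). By motif the medians were 0.18 for NRF1 (9 genes), 0.47 for ETS (5) and 0.30 for YY1 (11). All promoters shown are of genes with a positive difference. The matches of Uqcrc1 (NRF1), Ndufa9 (YY1) and Ndufs6 (YY1) end beyond the stretch shown, and these genes gave −0.53, −0.56 and 0.71. Whether a match goes with the response was not tested, and the genes per motif are few.

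The depth behind the expression values was judged from the deposited confidence intervals, which correspond to 18.2 to 26.5 M fragments a clone. H3f3a stood at 128.3 and 143.5 FPKM in the control clones and at 71.8, 35.6 and 5.05 in knockdown clones 1 to 3. H3f3b stood at 249.4 and 237.1 in the controls and at 144.4, 104.3 and 51.7 in the knockdown clones. Both genes have processed copies that may share reads. Knockdown clone 1 kept the most H3.3 mRNA and stood apart on the first principal component of all genes (72.58, the other 4 clones −40.09 to 0.59, 39.1% of the variance). All 9 fibroblast markers were measured, with a summed level of 6948 to 7749 FPKM in the controls and 9167 to 10652 in the knockdown clones. The other markers were low. The 8 muscle markers summed to 1.42 to 15.6 FPKM a clone with 7 under 1 in every clone (Tnnt2 was the exception), 5 epithelial ones to 0.433 to 1.39 (Epcam, Krt8, Krt18 and Krt5 under 1), 4 blood ones to 1.27 to 13.1 (Ptprc and Hbb-b1 under 1), 5 adipocyte ones to 1.08 to 9.18 (Ucp1, Adipoq, Cidea and Plin1 under 1), 4 germ cell ones to 0 to 1.11 and 3 neuron ones to 0.167 to 0.241. With bulk RNA, a change in the mRNA of every cell and in the number of cells that hold it cannot be told apart.

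In these fibroblasts most respiratory chain genes were among the most abundant mRNAs. A mean of at least 1 FPKM over the 5 clones was reached by 77 of the 84, and these were tested. Their median stood at the 94.4th percentile of the 11728 genes that reached it, and 30 were among the 500 most abundant. The 7 genes below that level were Ndufa4l2, Cox4i2, Cox6b2, Cox7a1, Cox7b2, Cox8b and Cox8c.

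By complex, the most abundant mRNAs on this length-corrected scale were the following. In complex V, Atp5b, the catalytic β subunit, stood at 945.5 and 776.4 FPKM in the controls and at 382.8, 666.0 and 1017.3 in the knockdown clones. The knockdown clones thus lay on both sides of the controls and spread over a wider range. It was followed by Atp5g2 (264.4 and 373.3 in the controls, then 574.6, 396.0 and 533.1) and Atp5g3 (409.4 and 395.8, then 258.7, 408.8 and 415.8), which encode the same mature c subunit of the rotor. In complex IV, Cox8a (mm9 chr19:7289648-7292106), a small accessory subunit, stood at 539.3 and 583.3 in the controls and at 807.1, 813.2 and 799.1 in the knockdown clones, with no overlap and little spread within either group. Cox6a1 stood at 526.0 and 538.7, then 671.4, 669.3 and 483.4, and Cox6c at 285.3 and 385.9, then 611.1, 530.5 and 609.3. Cox6c was apart in all clones, whereas knockdown clone 3 put Cox6a1 below both controls. In complex III, Uqcrh, the acidic hinge protein that contacts cytochrome c1, stood at 321.9 and 369.5, then 689.9, 452.0 and 351.2. Uqcrq, a small subunit of the bc1 complex, stood at 280.7 and 251.6, then 192.8, 313.8 and 426.9. In both, the 2 groups of clones overlapped. In complex I, Ndufa4 led with 376.2 and 426.1, then 316.5, 522.5 and 450.5, followed by Ndufa12 and Ndufb9 at a mean of 206.2 and 192.2 FPKM. The 4 complex II mRNAs had means from 64.0 (Sdha) to 93.0 (Sdhc), so none approached the leading genes of the other complexes.

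The isoform genes were unequal in these cells. Cox4i1, the ubiquitous form of the largest nuclear-encoded complex IV subunit, had a mean of 422.4 FPKM, and Cox4i2, its lung form, 0.158. Cox6a1, the form of liver and most tissues, had 577.8, and Cox6a2, the heart and muscle form, 1.63, with single values from 0.231 to 3.49. Cox6b1 had 272.1, and its testis form Cox6b2 0.126. Cox7a2 had 139.8 and Cox7a2l 193.1, and the muscle form Cox7a1 0.294. Cox8a had 708.4, Cox8b, a heart and muscle form, 0.0443, and Cox8c, a testis form, is listed at 0 in all 5 clones. The testis gene Cox7b2 had 0.270 against 96.6 for Cox7b, and Ndufa4l2, a hypoxia-induced relative of Ndufa4, 0.116 against 418.4. In every clone of both groups the restricted forms stayed at or below 3.49 FPKM, while Cox7a2 and Cox7a2l were both abundant. The 3 genes of the ATP synthase c subunit were all abundant instead, with means of 428.3 (Atp5g2), 377.7 (Atp5g3) and 182.4 FPKM (Atp5g1). Reads of processed pseudogenes may be counted with several of these genes, and how the authors treated reads with several matches is not given in the sources used here.

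Summed over the 77 genes tested, respiratory chain mRNA came to 12039 and 11887 FPKM in the control clones and to 13260, 14316 and 15267 in knockdown clones 1 to 3. All knockdown clones were above both controls in summed FPKM, and the knockdown mean was 119.4% of the control mean. As a share of all FPKM, the members held 2.09% and 2.24% in the controls, then 2.28%, 2.47% and 2.56%. In estimated fragments, not divided by length, they held 0.282 of 25.9 M and 0.265 of 25.2 M in the controls. The knockdown clones held 0.176 of 18.2 M, 0.291 of 26.5 M and 0.230 of 18.6 M. By this fragment share, knockdown clone 1 lay below both controls and the other knockdown clones above. The groups thus overlapped. The summed FPKM was unevenly spread over the complexes. Complex I was at 128.5% of control, complex III at 124.7%, complex IV at 128.1%, complex V at 106.0% and complex II at 90.6%. The plot of sums by complex shows that the clones of the groups did not overlap for complexes I to IV and did for complex V.

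**Figure D1:**
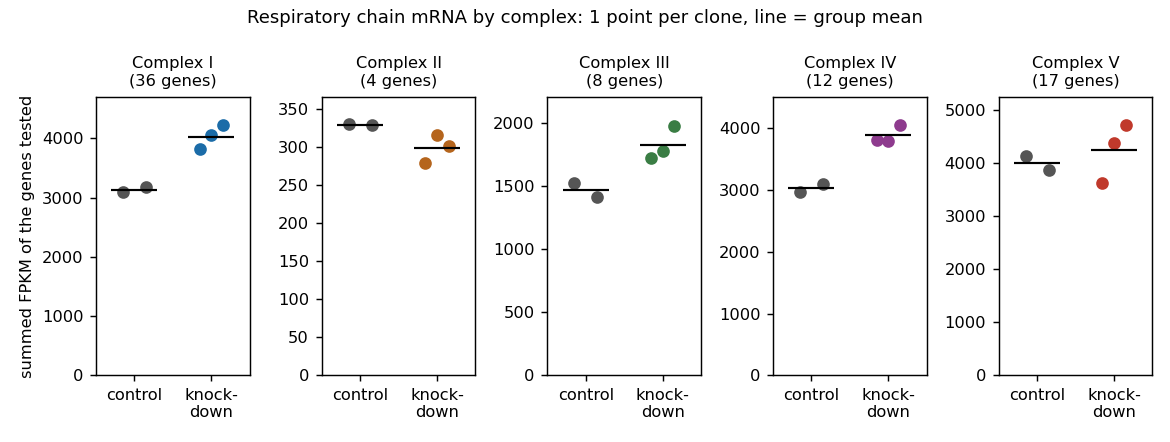
Summed FPKM (y axes, each starting at 0) of the genes tested in complexes I to V, 1 point per clone and a line at each group's mean. Complexes I, III and IV lie higher in all 3 knockdown clones, complex II lies lower in all 3, and the complex V points overlap.

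Gene by gene, no member passed the test. A linear model fitted with limma on log2(FPKM + 1) over all 11728 genes, with Benjamini-Hochberg adjustment, called 0 of the 77 members at an adjusted p under 0.05, and 4 genes, or 0.0341%, over the whole table. At an unadjusted p under 0.05 there were 17 members higher and 2 lower in the knockdown clones, against 3.5% higher and 6.31% lower of all genes. All 3 knockdown clones lay above both controls for 33 members, or 42.9%, against 11.4% of all genes, and below both for 7 members, against 21.2%. The median log2 difference was 0.26 for the members and −0.10 for all genes. Clone by clone the median of the members was 0.20, 0.30 and 0.32 above the control mean in knockdown clones 1 to 3, and that of all genes −0.13, −0.08 and −0.06. Without knockdown clone 1, 48 members (62.3%) lay above both controls, against 16.6% of all genes, and the median was 0.32. The 19 members at an unadjusted p under 0.05 became 2 when control clone 1 was left out, 5 when control clone 2 was, 11 when knockdown clone 2 was, and 3 with the clone number as a block. The 7 members below both controls became 12 when either control clone 2 or knockdown clone 3 was left out. Over all genes, 36.6% and 31.7% then lay below both. Counts of genes with all clones on 1 side can only rise when a clone is left out.

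**Figure D2:**
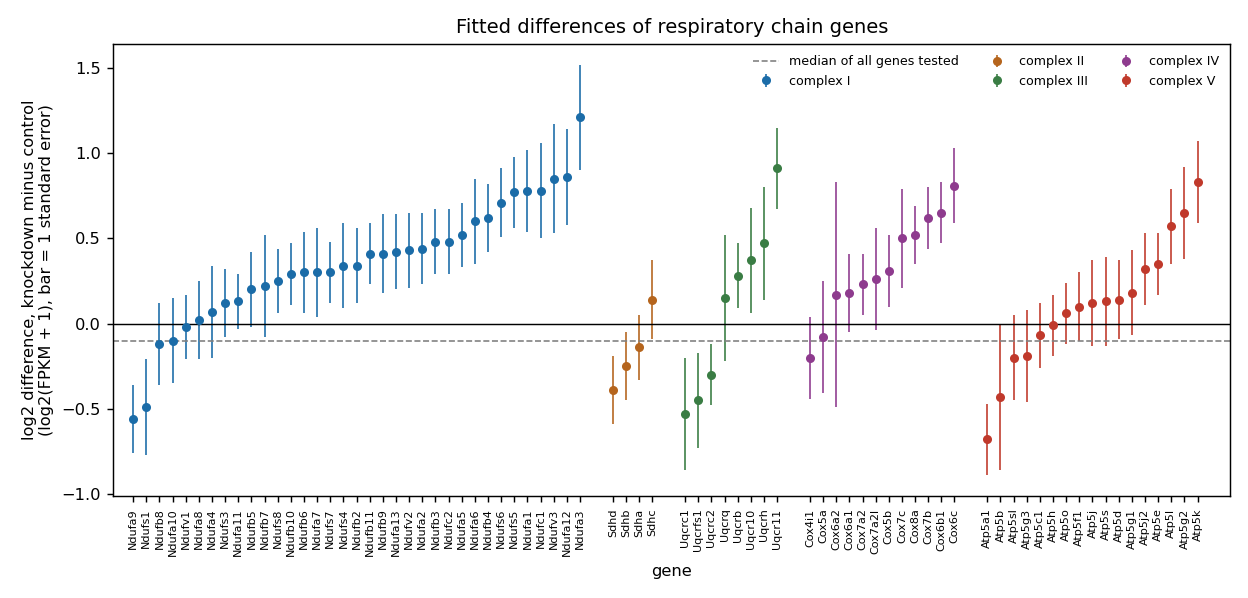
Fitted log2 difference of knockdown minus control clones (y axis, on the log2(FPKM + 1) scale) for the genes tested, other than 1 that is not reported here, grouped by complex and sorted, with bars of 1 standard error; the dashed line is the median of all genes. Most complex I and IV genes lie above 0, while Sdhd, Sdhb and Sdha, Uqcrc1, Uqcrfs1 and Uqcrc2, and Atp5a1 and Atp5b lie below it.

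In complex I, 30 of 36 genes had a positive difference, with a median of 0.34. All 3 knockdown clones lay above both controls for 21 genes, or 58.3%, against 11.4% of all genes tested. Ndufa3 (mm9 chr7:3568975-3571763), an accessory subunit, stood at 83.7 and 93.4 FPKM in the controls and at 283.7, 149.8 and 205.7 in the knockdown clones. This was the most positive difference of any member, 1.21 on the log2 scale (SE 0.31, limma adjusted p = 0.445). Ndufs5 stood at 68.1 and 57.4, then 91.4, 119.0 and 112.7 (log2 difference 0.77, SE 0.21). Ndufs6, a zinc-binding accessory subunit, stood at 61.1 and 70.0, then 107.4, 96.4 and 119.6 (log2 difference 0.71, SE 0.20). Neither gene's clones overlapped, and the adjusted p was 0.451 for both. The core subunits, among them those that carry the flavin and the iron-sulfur clusters, lay on both sides of 0. Ndufs1, the largest of them, stood at 62.3 and 55.2, then 30.2, 51.9 and 45.9 (log2 difference −0.49, SE 0.28, and −0.26 without knockdown clone 1). The core genes Ndufv1 and Ndufs3 had differences of −0.02 and 0.12, and Ndufs7, Ndufs8 and Ndufv2 of 0.30, 0.25 and 0.43; these 5 were named after their values were seen. Ndufa9, a large accessory subunit, stood at 96.4 and 88.0, then 55.2, 72.0 and 60.6 (log2 difference −0.56, SE 0.20, limma adjusted p = 0.491), so its knockdown clones all lay below the controls. Ndufa4 gave 0.07 (SE 0.27), and its sign turned under quantile normalization (−0.05).

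In complex II, 2 of 4 genes lay below both controls in all knockdown clones and none above. Over all genes tested, 21.2% lay below and 11.4% above, and with 4 genes the shares cannot be told apart. Sdhd, a membrane anchor, stood at 94.7 and 82.8 FPKM in the controls, then 59.9, 70.0 and 73.0 (log2 difference −0.39, SE 0.20). Sdhb, the iron-sulfur subunit, stood at 88.9 and 83.6, then 63.3, 73.2 and 81.8 (log2 difference −0.25, SE 0.20, and −0.15 without knockdown clone 1). Both were lower in all 3 knockdown clones, at limma adjusted p values of 0.531 and 0.642. Sdha, the flavoprotein, stood at 64.4 and 71.0, then 55.0, 60.3 and 69.2, and Sdhc, the other anchor, at 82.6 and 91.4, then 101.1, 112.1 and 77.6. For these the clones of the groups overlapped.

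In complex III, 5 of 8 genes had a positive difference, and 2 lay above and 1 below both controls in all knockdown clones. These were 25.0% and 12.5%, against 11.4% and 21.2% of all genes tested. Uqcr11 (chr10:79865742-79869566), a small accessory subunit, stood at 219.2 and 156.6, then 324.1, 320.9 and 406.6 (log2 difference 0.91, SE 0.24, limma adjusted p = 0.447). The core proteins Uqcrc1 (235.4 and 176.3, then 100.1, 146.8 and 191.7) and Uqcrc2 (64.0 and 72.9, then 52.6, 55.2 and 58.0) had log2 differences of −0.53 (SE 0.33) and −0.30 (SE 0.18). Uqcrfs1, the Rieske iron-sulfur protein, stood at 82.6 and 68.3, then 40.6, 59.3 and 68.3 (log2 difference −0.45, SE 0.28). Of these 3, Uqcrc2 alone had every knockdown clone below both controls. Without knockdown clone 1, which stood apart, Uqcrc1 gave −0.28 and Uqcrfs1 −0.24. Without control clone 1, Uqcrc1 gave −0.32. The difference of Uqcrh was 0.47 (SE 0.33), or 0.21 without knockdown clone 1. That of Uqcrq was 0.15 (SE 0.37) and turned to −0.11 without knockdown clone 3. The median of the complex, 0.21, became 0.02 without knockdown clone 3. Cyc1, the catalytic cytochrome c1 that the name rule leaves out, stood at 202.4 and 215.6, then 91.7, 148.8 and 182.1 (log2 difference −0.62, SE 0.33, limma adjusted p = 0.547).

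In complex IV, 10 of 12 genes tested had a positive difference, with a median of 0.29. None had all knockdown clones below the controls, against 21.2% of all genes tested. Cox6c gave a log2 difference of 0.81 (SE 0.22, limma adjusted p = 0.447) and Cox8a 0.52 (SE 0.17, adjusted p = 0.469). Cox6b1, a subunit on the intermembrane side, stood at 201.6 and 203.7, then 334.3, 291.6 and 329.3 (log2 difference 0.65, SE 0.18), and Cox7b at 73.4 and 72.1, then 103.1, 111.1 and 123.1 (log2 difference 0.62, SE 0.18). In all 4 genes every knockdown clone lay above both controls. Cox4i1 stood at 446.1 and 461.2, then 351.4, 344.3 and 509.0, with the groups overlapping (log2 difference −0.20, SE 0.24). Cox7a2 and Cox7a2l gave 0.23 (SE 0.18) and 0.26 (SE 0.30). Cox6a1 gave 0.18 (SE 0.23), which became −0.03 under quantile normalization, and Cox6a2 0.17 (SE 0.66), which became −0.65 without control clone 1.

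In complex V, Atp5a1, the α subunit, stood at 402.3 and 395.1 FPKM in the controls and at 208.7, 285.5 and 255.7 in the knockdown clones. Its log2 difference of −0.68 (SE 0.21, limma adjusted p = 0.468) was the most negative of any member, and every knockdown clone lay below both controls. Its partner Atp5b gave −0.43 with an SE of 0.43, and −0.06 without knockdown clone 1. Atp5k (chr5:108862272-108863397), the small e subunit of the membrane part, stood at 253.3 and 226.5, then 401.5, 540.8 and 359.2 (log2 difference 0.83, SE 0.24, adjusted p = 0.462). Of the c subunit genes, Atp5g2 gave 0.65 (SE 0.27) with all knockdown clones higher (0.41 without control clone 1), Atp5g1 0.18 (SE 0.25), and Atp5g3 −0.19 (SE 0.27), which turned to 0.03 without knockdown clone 1. The 17 genes had a median of 0.12 (0.05 without knockdown clone 2), with 5 above and 1 below both controls in all knockdown clones. These were 29.4% and 5.88%, against 11.4% and 21.2% of all genes tested.

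The direction of a gene went with the length implied for its transcript. This length was derived from each deposited interval and FPKM, on a relative scale that was not checked against annotated base pairs. Its SD over the 5 clones ran from 0.868% (Atp5g2) to 22.1% (Ndufs1) of its mean. Across the 77 members, the implied length correlated with the log2 difference at a Spearman rho of −0.68 (Pearson r −0.71 with the log2 length), given as a description, because genes of the same 5 libraries are not independent. The 15 members with an implied length under 400 had a median difference of 0.62, the 25 from 400 to 600 one of 0.31, the 15 from 600 to 1000 one of 0.17, the 15 from 1000 to 2000 one of 0.12 and the 7 of 2000 and over one of −0.32. Over all genes tested, the medians in the same ranges were 0.28 (538 genes), 0.22 (232), 0.05 (631), −0.11 (2015) and −0.12 (8243). The medians of all genes thus also fell with length, over a narrower range, but gene by gene the relation over all 11659 genes with a length was weak (rho −0.05, r −0.07). The medians of the members lay above those of all genes in the 4 shorter ranges and below in the longest. The longer ranges differed between knockdown clones 1 to 3. Against the control mean, members under 400 had medians of 0.53, 0.61 and 0.63 in these clones. Those from 1000 to 2000 had 0.17, −0.07 and −0.03. Those of 2000 and over had −0.29, −0.16 and 0.03, and all genes of that length −0.16, −0.10 and −0.09. Of 40 members under 600, 23 had all knockdown clones above both controls, or 57.5%, against 21.4% of 770 genes of that length, and none had them below. Of 22 members of 1000 and over, the figures were 3 above and 6 below, or 13.6% and 27.3%, against 10.1% and 22.9% of 10258 genes. The part of transcript length in the difference between the groups was not tested.

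**Figure D3:**
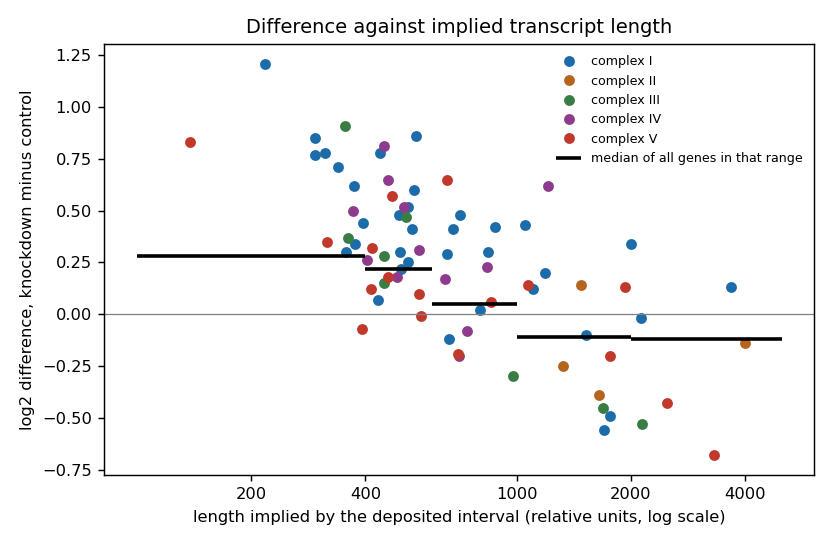
Log2 difference of knockdown minus control clones (y axis) against the implied transcript length (x axis, log scale, relative units) for the same genes, coloured by complex, with black lines at the median of all genes in each length range. Most points fall from left to right, from Ndufa3 and Atp5k on the left to Atp5a1 and Uqcrc1 on the right. Sdha and Ndufa11 lie furthest right, at −0.14 and 0.13.

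Other genes of mitochondrial energy metabolism did not share the members' median, but these lists were not matched to the members by implied length. The 22 members of an implied length of 1000 and over had a median of −0.12, as had the 10258 genes of that length. The part of length in this contrast was not tested. None of the lists had a gene past the limma test at an adjusted p under 0.05. At an unadjusted p under 0.05 they held 1 regulator that was higher, and 1 assembly factor, 1 regulator and 3 ribosomal protein genes that were lower. Over all genes tested, 3.5% were higher and 6.31% lower at that level. Among 10 genes that belong to the chain or its assembly but escape the name rule, 5 were higher and 5 lower, with a median of 0.04. Of these Atpif1, the ATPase inhibitor, gave 0.71 (SE 0.33), and Usmg5 and 2010107E04Rik, small ATP synthase proteins, 0.59 and 0.51. Of 36 assembly factors tested, 16 were higher and 20 lower (median −0.07), with 6 apart in each direction (16.7% each). Over all genes, 11.4% lay above and 21.2% below both controls in all knockdown clones. Of the 77 mitochondrial ribosomal protein genes, 39 were higher and 38 lower (median 0.00), with 6 above (7.79%) and 14 below (18.2%) both controls. Both shares were near those of all genes. All 13 genes of the tricarboxylic acid cycle had negative differences (median −0.33), among them Idh3a at −0.73 and Mdh2 at −0.33, and 5 of them lay below both controls in all knockdown clones. Among 18 regulators of these genes, 6 were higher and 12 lower (median −0.18). Ppargc1b, a coactivator of mitochondrial genes, stood at 3.48 and 3.37 FPKM, then 1.25, 1.41 and 1.34 (log2 difference −0.92, SE 0.20, limma adjusted p = 0.417). Tfam, which packages and transcribes mitochondrial DNA, stood at 6.97 and 5.18, then 8.43, 10.5 and 12.0 (log2 difference 0.67, SE 0.22, adjusted p = 0.479). Nrf1, Gabpa and Yy1, whose motifs were searched, gave −0.35, 0.01 and −0.12. The 13 genes of the mitochondrial chromosome were not analysed here.

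Most of these loci carried the marks of active promoters, with the lowest share in complex IV. A deposited H3K4me3 peak lay within 2 kb of either end of 77 of the 84 loci (91.7%, exact binomial 95% interval 83.6 to 96.6%), against 53.4% of all 24457 loci and 94.8% of loci with a control expression of at least 10 FPKM. H3K9ac gave the same number, 77, against 45.7% of all loci and 92.6% of expressed ones. H3K27ac gave 65 (77.4%, interval 67.0 to 85.8%), against 35.6% and 73.9%. In complex IV, 11 of 18 loci had H3K4me3, 11 had H3K9ac and 9 had H3K27ac, and every locus of the other complexes had the first 2. The shares at the members were thus close to those at expressed loci. The 7 loci without an H3K4me3 or H3K9ac peak were Cox4i2, Cox6a2, Cox6b2, Cox7a1, Cox7b2, Cox8b and Cox8c, the tissue-restricted forms of complex IV with little mRNA here. Among the genes under 1 FPKM, Ndufa4l2 alone had both peaks. Of 49 members longer than 4 kb with a known strand, the H3K4me3 peak lay at the 5′ end in 48 and at the 3′ end in 5, and H3K9ac gave the same counts. Coordinates of loci and peaks are on mm9.

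The deposited levels, log2(RPKM + 1) in regions pooled by the authors from their ChIP libraries, were taken as the highest region within 2 kb of a locus end, and 78 members had such a region. Cox6a2, Cox7b2, Cox8b, Cox8c, Ndufs4 and Uqcrb had none. The median level was 4.30 for H3K4me3 (4.22 at expressed loci, 3.96 at all loci with a region), 2.50 for H3K9ac (2.35 and 2.04) and 1.65 for H3K27ac (1.62 and 1.47). H3K4me3 was highest at Ndufa5 (5.35), Ndufa7 (5.32) and Cox5b (5.29) and lowest at Cox7a1 (0.13), Cox6b1 (0.17) and Cox6b2 (0.30). Cox6b1 is an abundant gene, and a H3K4me3 peak of score 3100 lay within 2 kb of its ends, so its low level belongs to the single listed region and not to that peak. The 3 marks rose and fell together across members, with a Spearman rho of 0.91 between H3K4me3 and H3K9ac over 78 loci, as a description of regions that share their listing.

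HA-H3.3 peaks lay near a smaller share of these loci than of expressed loci. A region covered by such peaks of both replicates was found at 50 of 84 members (59.5%, exact binomial 95% interval 48.3 to 70.1%), against 78.4% of expressed loci (interval 77.4 to 79.3%). Over the 77 members of at least 1 FPKM it was 62.3% (interval 50.6 to 73.1%). The median HA-H3.3 level was 2.03, with 2.04 and 2.06 in replicates 1 and 2 taken alone, against 2.30 at expressed loci. Member loci are shorter, with a median of 6.83 kb against 18.7 kb at expressed loci, and 29.8% against 13.7% are under 4 kb, where the windows at the 2 ends meet; the part of locus length in this difference was not tested. The mean level of the 2 replicates was high at Cox6a1 (3.47) and Ndufa6 (3.25), and lowest at Atp5k (0.49), Ndufb8 (0.56) and Ndufa1 (0.79). In single replicates these 2 high loci lay at 2.97 to 3.89 and the 3 low ones at 0.42 to 0.79. The HA-H3.3 level did not go with the response of the mRNA, with a Spearman rho of −0.01 against the log2 difference over 74 members. The 48 members tested with HA-H3.3 peaks of both replicates had a median difference of 0.22, and the 29 others 0.31. It did not go with H3K4me3 either (rho 0.03 over 78 members).

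NuRD subunits in unmodified cells covered the member loci in unequal numbers. The part of the shorter member loci in these shares, and in those of control and knockdown cells below, was not tested either. Regions covered by an RBBP4 peak lay near 66 of the 84 loci (78.6%), against 84.9% of expressed loci, by HDAC2 near 40 (47.6% against 58.0%), by HDAC1 near 20 (23.8% against 36.3%), by MBD2/3 near 20 (23.8% against 15.6%), and by CHD4 and MTA1 near 12 each (14.3% against 13.0% and 15.2%). The exact binomial 95% interval was 15.2 to 34.3% for both HDAC1 and MBD2/3. Over the 77 members with a mean of at least 1 FPKM, the share was 26.0% for both (interval 16.6 to 37.2%), which holds the HDAC1 share of expressed loci and lies above the MBD2/3 share. At least 4 of the 6 subunits were found near 12 members, among them all 6 at Atp5g1 and Atp5h, 5 at Sdhc, and 4 at Atp5d, Atp5g2, Cox7a2, Ndufa12, Ndufa4, Ndufa5, Ndufs7 and Uqcrh, a share of 14.3% against 17.5% of expressed loci. The median levels were 2.27 for RBBP4, 2.04 for HDAC2, 1.79 for HDAC1, 1.55 for MBD2/3, 1.46 for CHD4 and 1.41 for MTA1, each resting on a median of 13.0 to 24.5 reads in the region used.

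**Figure D4:**
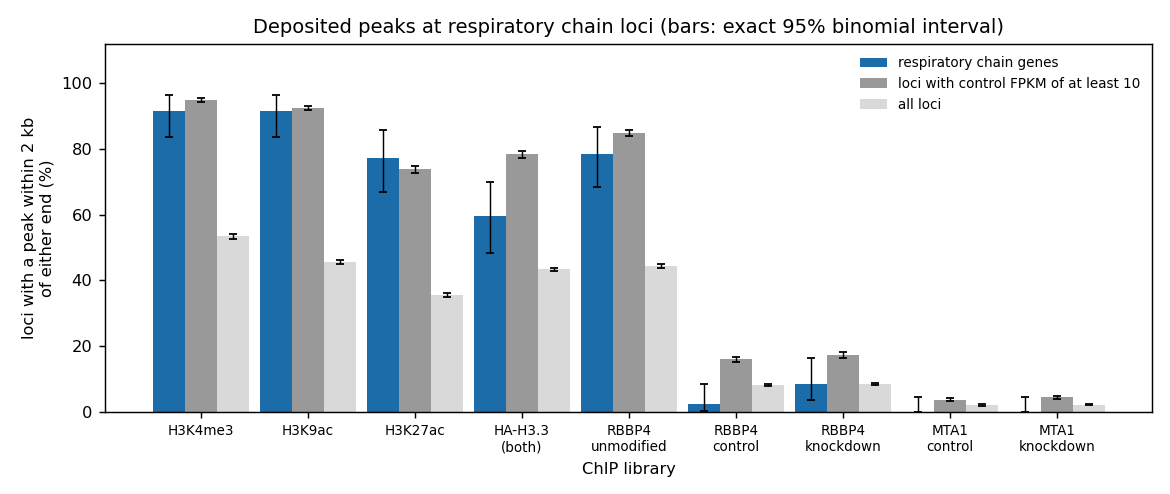
Share of loci (y axis, %) with a deposited peak within 2 kb of either end, or for HA-H3.3 and RBBP4 of unmodified cells a listed region covered by such a peak, for the 84 respiratory chain loci, loci with a control FPKM of at least 10, and all loci, with exact 95% binomial intervals. The 3 marks are near the level of expressed loci, HA-H3.3 (59.5% against 78.4%) and RBBP4 in control cells (2.38% against 15.9%) lie below it, and MTA1 has no peak in either condition. Covered regions and peak lists are unlike measures. The RBBP4 bars of unmodified and control cells (84.9% and 15.9% at expressed loci) therefore cannot be compared.

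In the cells transduced with control or knockdown constructs, MTA1 had no peak within 2 kb of any member locus, in either condition. The exact binomial 95% interval for 0 of 84 reaches 4.30%. The share over all loci was 1.99% in control and 2.14% in knockdown cells, and a difference from these was not detectable with this number of loci. The shares of expressed loci were 3.63% and 4.38%, the second of them just above that limit. Over the 77 members of at least 1 FPKM the interval reaches 4.68%, above both. RBBP4 had a peak at 2 members in control cells (2.38%, exact binomial 95% interval 0.290 to 8.34%), against 8.13% of all loci and 15.9% of expressed ones. In knockdown cells it had a peak at 7 members (8.33%, interval 3.42 to 16.4%), against 8.34% and 17.3%. In both conditions the interval lay below the share of expressed loci and held the share of all loci. Over the 77 members of at least 1 FPKM the shares were 2.60% (interval 0.316 to 9.07%) and 9.09% (3.73 to 17.8%), and the second interval holds the share of expressed loci. There was 1 library per condition, so the difference between 2 and 7 has no replicate check and was not tested. Both counts are over the same loci, so their overlapping intervals do not compare the conditions. Ndufa6 was the member with a peak in both conditions, at chr15:82184867-82185157 with a deposited score of 52.7 in control and at chr15:82184796-82185085 with 151.9 in knockdown cells. Both lie just outside its locus (chr15:82180569-82184721). Uqcrq had one in control cells alone (chr11:53244011-53244295, score 70.7), inside the end of its locus (chr11:53242450-53244333). Peaks in both conditions lay at 1.19% of members, 4.53% of all loci and 9.13% of expressed ones. Those in control cells alone lay at 1.19%, 3.60% and 6.74%. The other 6 members had one in knockdown cells alone, or 7.14%, against 3.81% of all loci and 8.15% of expressed ones. These 6 members were Ndufa11 (chr17:56855928-56856226, score 102.7, outside its locus at chr17:56857185-56863671), Ndufv2 with 2 peaks (scores 66.8 and 81.4), Ndufs1 (77.5), Ndufa4 (65.0), Uqcrh (50.3) and Ndufv3 (50.2). These 10 scores ran from 50.2 to 151.9, and the lowest value in each list was 50.0. At a score of at least 100 the counts were 0 and 2. The mRNA of these 7 members with a knockdown peak had differences from −0.49 (Ndufs1) to 0.85 (Ndufv3), with a median of 0.43. No member lay near any of the 6 peaks of the sequential ChIP.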

How the data were processed

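Polyadenylated RNA of 5 clones and ChIP-seq libraries of the same line were measured, 28 samples in all, grouped from the labels alone. Per the submitters' processing notes, Bowtie, TopHat, Cufflinks, Cuffdiff, bedtools and MACS2 were used on mm9, with roles and versions not given in the sources used here. The authors deposited FPKM per gene with confidence bounds, per the file headers as Cufflinks writes them, and no read counts. They deposited ChIP levels on a log2 scale, log2(RPKM + 1), since read that way 100% of values gave whole reads within 0.05. The authors also deposited the fraction of each region covered by each library's peaks, peak lists with a score of at least 50.0 (whether pooled or per sample is not given for each), and, for the sequential ChIP, MACS 2.1.1.20160309 peaks with a fold enrichment ratio, which was not used here.

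Entries of a symbol were summed. Genes that averaged 1 FPKM or more were fitted on log2(FPKM + 1) with limma 3.58.1 in R 4.3.3 (lmFit, then eBayes with a trend; two-sided). This scale understates fold changes of low genes. P-values were adjusted by Benjamini-Hochberg over all 11728 genes. The script was tested on simulated data. Implied length was the number of fragments, estimated from the upper bound taken as 2 SD of a Poisson count, per FPKM and total; its ranges were chosen after the data were seen. A member has a peak if one lies within 2 kb of either locus end on mm9. Shares carry exact Clopper-Pearson 95% intervals, which cover counting error over loci only; loci are not replicates. Strand use in counting is not given, so reads of a gene and of one that overlaps it cannot be told apart. Inputs were not used.

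Members and lists were chosen with earlier results of these data known. The genes named are, by complex, the 3 of highest mean FPKM and those under 1, the 8 of smallest p in each direction, isoform sets and Sdh genes. At chromatin they are members without a region, those with an MTA1 or RBBP4 peak, and the 3 highest and lowest by H3K4me3 and HA-H3.3 level; 1 named gene is not reported here. Other lists were 10 chain genes outside the name rule, assembly factors, regulators, mitochondrial ribosomal proteins, tricarboxylic acid cycle genes and cell type markers. Alternatives were another pseudocount, filter, scaling and fit, the clone number as a block, each clone left out, other windows, a higher score and the mean over regions.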

Additional observations from a re-analysis of the deposited data

How the results depend on the processing

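No member passed the limma test under any of the 11 alternatives. The median log2 difference of 0.26 stayed between 0.22 and 0.32 when each clone was left out. The complex medians kept their sign under all 11, though complex V fell to between 0.05 and 0.07 in 4 of them. Complex III fell to 0.02 with the replicate block and without knockdown clone 3. For the differences these are the same fit, because the block gives knockdown clone 3, alone in its number, a term of its own. The number of members at an unadjusted p under 0.05 ranged from 2 to 17 when each clone was left out, the lowest without control clone 1, and was 3 with the replicate block, against 19. The clone numbers are not known to pair the clones: deviations of same-numbered clones correlated at −0.25 and −0.0952, and the third knockdown clone has no partner. The number above both controls ranged from 37 to 48 and below both from 7 to 12 when each clone was left out. Such counts can only rise with fewer clones. Over all genes the shares then ranged from 15.5% to 23.0% above and from 26.8% to 36.6% below. Signs turned for 5 of 33 named members, none called in any setting. Under quantile normalization Cox6a1 gave −0.03 and Ndufa4 −0.05, and with the replicate block Cox6a2 gave −0.27 and Uqcrq −0.11. Leaving out a clone gave ranges of −0.65 to 0.99 for Cox6a2, −0.08 to 0.28 for Ndufa4, −0.11 to 0.46 for Uqcrq and −0.31 to 0.03 for Atp5g3. Within 5 kb MTA1 in control cells had 1 member with a peak, and at a score of at least 100 RBBP4 had 0 in control and 2 in knockdown cells. With the mean over the regions the median levels were 1.16 for CHD4, 1.48 for HDAC1, 1.59 for HDAC2, 1.24 for MBD2/3, 1.78 for RBBP4, 1.30 for H3K27ac, 2.97 for H3K4me3, 1.95 for H3K9ac and 1.65 for HA-H3.3, lower by construction. Leaving out 1 HA-H3.3 replicate gave 2.04 to 2.06. With 2 and 3 clones and 1 ChIP library a condition, the number of samples limits every comparison.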
